A study of Mus musculus with 20 samples.

Results

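Fragments of ribosomal protein mRNAs were followed in small RNA sequencing of cauda epididymosomes, the vesicles that epithelial cells of the epididymis release around sperm near the end of its duct. The genes were chosen by name, as protein-coding rows whose symbol is that of a cytosolic ribosomal protein. There were 81 of them among 18357 protein-coding rows in one table (72034 features in all) and the same 81 among 16649 in the other (59035 features). They comprised 50 genes named for proteins of the large subunit (Rpl and Rplp) and 31 for those of the small subunit (Rps and Rpsa). Among the 50, Rpl6l is annotated as a processed pseudogene in GENCODE vM21. Rps3a1, Rpl36al, Rpl7l1, Rpl22l1 and Rps27rt start with the same letters but fell outside the naming rule, and are not described further.

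One group held 5 MSUS males aged 9 months. Their litters went through unpredictable maternal separation, 3 h a day for the first 2 weeks of life, while the dams were stressed by forced swim or restraint at unpredictable times. The other group held 5 Control males of the same age from undisturbed litters. The sources used here name no strain and do not say which males were littermates, and p-values below therefore cover only the variation among these 10 mice. Vesicles were pelleted at 120000 rcf after sperm had been removed, and every library was sequenced in 2 runs, giving 20 samples in 2 tables. One table is labelled as made with size selection for miRNAs and is the deeper one; the table labelled without it is the shallower. Those labels go against the contents, since miRNAs made up 10.9 to 17.0% of the deeper table and 52.4 to 72.2% of the shallower.

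Ribosomal proteins are the protein part of the ribosome, and cells make them in nearly equal amounts for assembly with ribosomal RNA in the nucleolus. Their mRNAs are among the most abundant of growing cells, and most belong to the 5' terminal oligopyrimidine (TOP) class, whose transcripts open with a cytidine followed by a run of pyrimidines. That run lets the mTOR pathway, through LARP1, set their translation together. Many of the genes also carry small nucleolar RNAs (snoRNAs), the guides of ribosomal RNA modification, inside their introns.

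The pyrimidine run was looked for in RefSeq promoter windows (GRCm38.p6), which held 60 of the 81 genes. A run of 8 or more letters, each C or T, that covers the annotated start was present in 17 of the 72 windows of these genes (23.6%), against 1268 of 32851 windows of all genes (3.86%). On the opposite strand the shares were 2.78% and 5.81%. The 6 windows below are of Rpl7a, which has the longest run, and of 5 genes whose values are given further on. Each shows 30 bases before and 20 after the annotated start base, on the strand of the gene, with the run in capitals.
Rpl7a, chr2:26910777-26910827, plus strand: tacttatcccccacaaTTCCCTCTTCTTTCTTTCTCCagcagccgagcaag
Rpl35, chr2:39005111-39005161, minus strand: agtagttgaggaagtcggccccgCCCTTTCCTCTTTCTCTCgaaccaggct
Rps10, chr17:27635224-27635274, minus strand: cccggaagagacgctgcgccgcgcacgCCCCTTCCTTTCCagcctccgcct
Rps15a, chr7:118116127-118116177, minus strand: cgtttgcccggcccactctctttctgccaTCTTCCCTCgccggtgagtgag
Rps27, chr3:90213628-90213678, minus strand: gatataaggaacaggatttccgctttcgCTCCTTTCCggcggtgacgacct
Rps9, chr7:3704011-3704061, plus strand: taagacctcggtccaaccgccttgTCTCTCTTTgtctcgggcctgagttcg
The run was 21 letters long in Rpl7a, 18 in Rpl35, 13 in Rps10 and 9 in Rps15a, Rps27 and Rps9. A match describes these letters only, and the deposited tables do not say where in an mRNA a fragment lay.

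The libraries held 1872084 to 3647956 counts in the deeper table and 215231 to 871461 in the shallower. Of these, 3525 to 15956 and 238 to 1284 counts lay on the 81 genes. A deeper library had 80 or 81 of the genes above 0, and a shallower one 78 to 81. The values are estimated counts in which reads are shared out in fractions, and 4.10% and 2.77% of the genes' values above 0 were whole numbers to within 0.001. Across the 80 genes with an annotated coding transcript, a median of 49.3% of the 25-base words of that transcript also occurred in another gene. Pseudogene symbols stood in the table for 57 of the 81 genes, so that the split of reads between a gene and its copies is uncertain.

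Fragments came from all parts of the ribosome, and their levels differed widely between genes. Levels are given as CPM (counts scaled to a common library total, with TMM factors). Where genes are compared, CPM is divided by the kilobases of the gene's longest annotated coding transcript, which ran from 383 to 5179 bases. A gene whose fragments come from a shorter transcript can thus be set too low. Per kilobase, the highest level in the deeper table was that of Rpl41, the smallest ribosomal protein, at 150 ± 32.6 in MSUS and 133 ± 33.4 in Control libraries (SD, n = 5 each). Rps29 followed at 133 ± 17.9 in MSUS and 125 ± 10.3 in Control libraries. Rps14 had 120 ± 18.8 in MSUS and 101 ± 14.3 in Control libraries. Rpl10, Rps26, Rpl4, Rpl8, Rpl13a, Rplp1 and Rpl32 completed the first 10, with means over the 10 libraries between 111 (Rpl10) and 81.5 (Rpl32). Differences between neighbours from Rpl41 to Rpl4 were smaller than the SD of Rpl41, 32.4.

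Rpl41 was also first in the shallower table, at 108 ± 22.2 CPM per kilobase in MSUS and 114 ± 32.9 in Control libraries. Rps29 was second again, at 77.5 ± 31.2 in MSUS and 61.9 ± 22.4 in Control libraries. Of the first 10 there, 8 were also in the first 10 of the other table. Rps27 and Rps9 took the places of Rpl10 and Rpl13a. The tables were scaled separately, so their levels are set side by side only as ranks. Over the 81 genes, mean CPM in the tables had a Spearman correlation of 0.90, and the values within an animal one of 0.75 to 0.88.

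**Figure D1:**
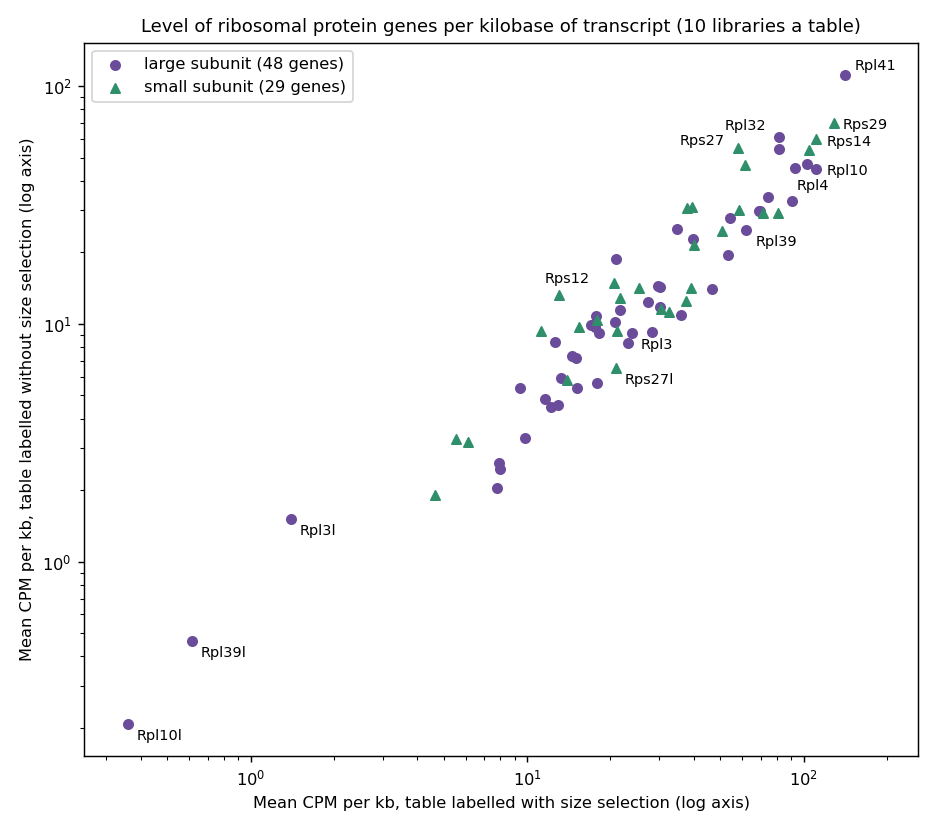
Mean level of each ribosomal protein gene in CPM per kilobase of its longest coding transcript, table labelled with size selection (x, log axis) against table labelled without (y, log axis), each over 10 libraries. Circles are large-subunit and triangles small-subunit genes, 77 in all. Rpl41 stands at the top right and the tissue-restricted Rpl3l, Rpl39l and Rpl10l at the bottom left.

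The stalk proteins recruit the elongation factors to the ribosome. Their means over the 10 libraries of the deeper table were 74.3 ± 11.9 CPM per kilobase for Rplp0, 81.7 ± 16.2 for Rplp1 and 53.0 ± 4.4 for Rplp2. Rpsa, a small-subunit protein also known as the laminin receptor precursor, stood at 13.9 ± 2.3, for a longest transcript of 1938 bases. Before that division it had 28.6 CPM in MSUS and 25.5 CPM in Control libraries, near the median of 26.05 CPM over the genes. Per kilobase, the median over the genes was 26.4, and the lowest 3 had 1.40 or less.

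Those 3 were copies of ribosomal protein genes known for narrow expression. Rpl10l, a testis-restricted copy of Rpl10, averaged 1.27 counts a library there, and was above 0 in 8 of 10 libraries. Rpl39l, expressed in male germ cells in place of Rpl39, averaged 1.12 counts and was above 0 in 7 libraries. Rpl3l, the copy used in skeletal and heart muscle, averaged 6.13 counts. Their widely expressed partners averaged 285 (Rpl10), 109 (Rpl39) and 92.0 (Rpl3) counts. The coding sequences of the mouse pairs share 84.7% (Rpl10 and Rpl10l, 642 bases) and 85.0% (Rpl39 and Rpl39l, 153 bases) of their letters. Rpl3l, Rpl10l and Rpl39l did not pass the filter on low counts and were not tested.

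MSUS libraries held a smaller ribosomal protein share of all counts, and a larger share of the protein-coding counts. In the deeper table the 81 genes took 0.252, 0.194, 0.229, 0.132 and 0.392% of all counts in MSUS 2, 4, 6, 8 and 14. In Control 3, 5, 7, 9 and 11 they took 0.288, 0.305, 0.273, 0.447 and 0.363%. Of the MSUS libraries, 4 were below every Control library, and MSUS 14 was above all but Control 9. The means were 0.240 ± 0.096% in MSUS and 0.335 ± 0.071% in Control libraries (SD, n = 5 each), a difference of -0.096 percentage points. Wilson intervals at 95%, which cover counting error only, ran from 0.128 to 0.136% for the lowest library, MSUS 8. In the shallower table the means were 0.121 ± 0.019% in MSUS and 0.154 ± 0.026% in Control libraries, and the groups overlapped through MSUS 14 (0.152%). These shares carry no test, because the genes were chosen as a set with earlier results of these data known.

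Protein-coding RNA as a whole moved with them. It made up 15.4 ± 6.4% of counts in MSUS and 23.7 ± 5.0% in Control libraries of the deeper table, and 7.48 ± 1.40% in MSUS and 10.5 ± 1.7% in Control libraries of the shallower. As a share of the protein-coding counts alone, the 81 genes took 1.52, 1.46, 1.56, 1.76 and 1.56% in MSUS 2, 4, 6, 8 and 14. The Control libraries 3, 5, 7, 9 and 11 had 1.38, 1.47, 1.39, 1.41 and 1.41%. Every MSUS library but MSUS 4 was above every Control library, and MSUS 4 was below Control 5 alone. The means were 1.57 ± 0.11% in MSUS and 1.41 ± 0.04% in Control libraries. In the shallower table the MSUS libraries had 1.68, 1.53, 1.54, 1.80 and 1.61% (mean 1.63 ± 0.11%) and the Control libraries 1.37, 1.55, 1.46, 1.46 and 1.49% (mean 1.47 ± 0.07%). There, MSUS 4 and MSUS 6 were below Control 5 and above the other Control libraries. Both tables come from the same libraries and are not independent. A share gives no absolute amount. Fewer of these fragments and more of other RNAs cannot be told apart in such bulk samples, nor can vesicle number and fragments per vesicle.

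Markers of other sources of RNA were summed in the same libraries, and the epithelial sum, led by Akr1b7, did not overlap between the groups. The epididymal epithelium list, with 20 of 22 genes above 0 and no row for Lcn9 and Spint5, summed to 0.638 to 1.56% of counts in MSUS and 1.85 to 2.86% in Control libraries of the deeper table. Its leading gene, Akr1b7, alone took 6.27 ± 1.25% of protein-coding counts in MSUS and 8.05 ± 1.35% in Control libraries. The list was not summed without Akr1b7, so its sums cannot be read as a shift of the whole list. With Akr1b7 left out of the total, the ribosomal protein share was 1.68 ± 0.13% in MSUS and 1.54 ± 0.04% in Control libraries. The sperm and spermatid list (17 of 17 genes above 0) summed to 0.0267 to 0.0593% in MSUS and 0.0312 to 0.0589% in Control libraries. The ranges for blood cells (13 of 13) were 0.0246 to 0.137% in MSUS and 0.0582 to 0.195% in Control libraries, and those for muscle and stroma (12 of 12) 0.0179 to 0.122% in MSUS and 0.0374 to 0.119% in Control libraries. Vesicle membrane genes (10 of 10) summed to 0.00774 to 0.0348% in MSUS and 0.0192 to 0.0418% in Control libraries. Endothelial genes (5 of 5) stayed under 0.001%. The part of these sources in the ribosomal protein shares was not tested.

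**Figure D2:**
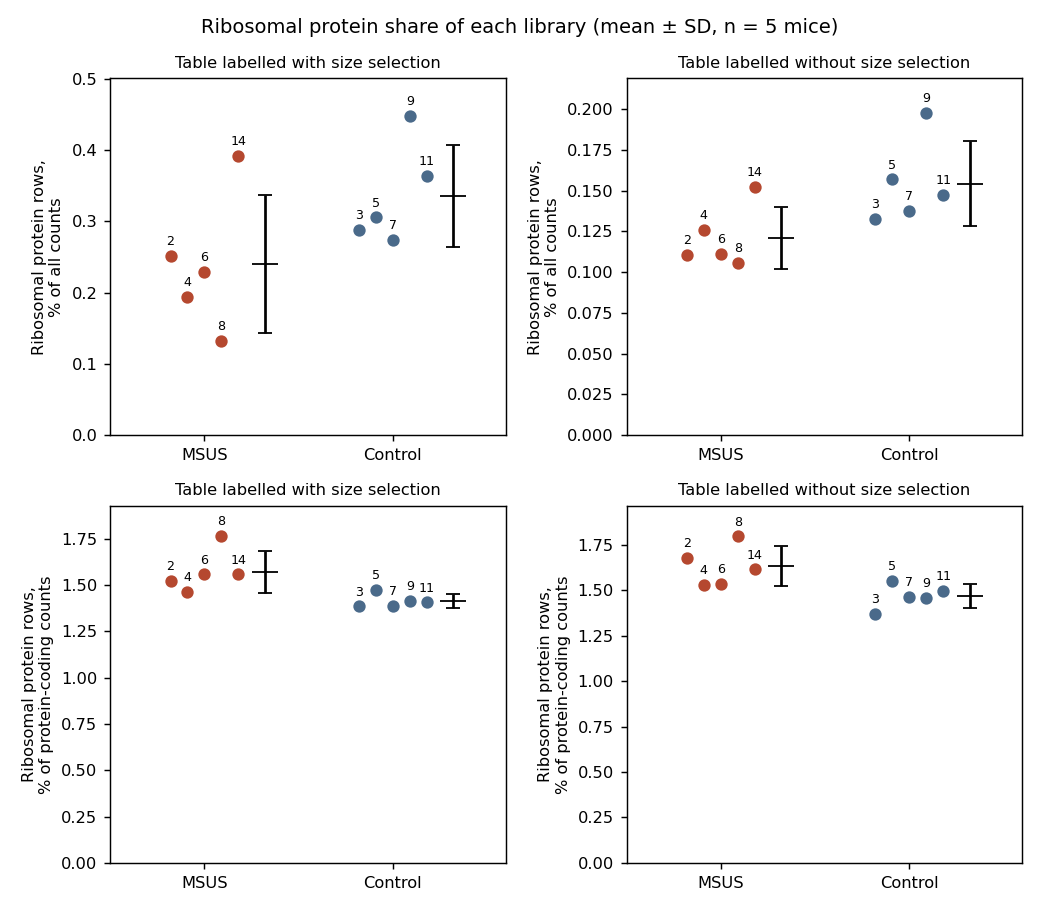
Share of the 81 ribosomal protein rows in each library as a percentage of all counts (upper row) and of protein-coding counts (lower row), in the table labelled with size selection (left) and without (right). Points are mice, numbered, with the mean and SD beside each group (n = 5 each). In the upper row most MSUS points lie below the Control points, and in the lower row most lie above them.

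Gene by gene, no ribosomal protein mRNA passed the test between MSUS and Control mice. The deeper table had the depth to test most of them: 78 of the 81 genes passed the filter, and 0 of 78 were called by edgeR's quasi-likelihood test at an adjusted p of 0.05, where 0% of all 10998 tested features were called. DESeq2 called 0 of the 78 and 33 of all features. At an unadjusted p under 0.05, 1 gene was higher in MSUS (background 3.45%) and 0 were lower (background 2.37%). The values of the groups overlapped for each of the 78 genes, while among all features 0.418% had every MSUS value above and 0.464% every MSUS value below the Control values. The fold changes were small and mostly of one sign, with 66 of 78 positive, a median of +0.08 on the log2 scale and a range of -0.09 to +0.34. The median was -0.00 over all tested features and -0.03 over the protein-coding ones, of which 44.6% were positive. In simulated data of this design the test recovered 93% of genes changed by 2 log2 units and 32% of those changed by 1. The simulated features all had the same set dispersion, which was not fitted to the ribosomal protein genes. Their median coefficient of variation was 15.0% in MSUS and 10.2% in Control libraries. The recovered shares therefore do not tell how often a change in these genes would be missed.

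That direction depends on the scaling. With library size alone, 0 of 78 genes were positive and their median was -0.50, while the median of all tested features stood at -0.57. Relative to all features, the ribosomal protein median was +0.08 higher under TMM and +0.07 higher under library size. Under TMM 39 of 47 large-subunit genes were positive (median +0.09) and 27 of 31 small-subunit genes (median +0.08). The large-subunit counts were 1.62 ± 0.09 times the small-subunit counts in MSUS and 1.63 ± 0.06 times in Control libraries.

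The smallest p among the 78 belonged to Rpl37a, a large-subunit protein. It had 27.5, 33.3, 32.4, 29.4 and 23.5 CPM in MSUS 2, 4, 6, 8 and 14, against 23.2, 19.0, 29.0, 22.3 and 20.9 CPM in Control 3, 5, 7, 9 and 11. All 5 MSUS values exceeded the Control mean of 22.9, and the groups overlapped through Control 7. The log2 fold change was +0.33 (SE 0.14, edgeR adjusted p = 0.837).

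Rps10, a small-subunit protein, had 52.2, 47.5, 46.0, 46.1 and 49.7 CPM in the MSUS libraries and 35.0, 41.8, 38.9, 44.5 and 48.2 CPM in the Control libraries. Only Control 11 reached into the MSUS range (log2 +0.21, SE 0.11, edgeR adjusted p = 0.877). Rpl39, which lines the exit tunnel of the nascent chain, averaged 41.5 ± 6.0 CPM in MSUS and 34.4 ± 4.3 CPM in Control libraries (log2 +0.24). Rpl18 averaged 37.3 ± 3.6 CPM in MSUS and 31.9 ± 3.4 CPM in Control libraries (log2 +0.21). The X-linked Rps4x averaged 40.8 ± 5.6 CPM in MSUS and 35.4 ± 2.4 CPM in Control libraries (log2 +0.20). These 5 genes were picked for their p, so that their direction adds no support. All 5 turned negative with library size alone.

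Among the negative values with the smallest p were those of Rpl19, Rpl7, Rps15a and Rpl31, between -0.07 (Rpl7) and -0.04 (Rps15a) on the log2 scale. Rpl19 averaged 39.8 ± 3.6 CPM in MSUS and 41.7 ± 1.8 CPM in Control libraries, and Rpl7 40.7 ± 5.3 CPM in MSUS and 42.8 ± 6.7 CPM in Control libraries. None of these 4 group differences exceeded the SD of the MSUS libraries, though that of Rpl19 exceeded the SD of its Control libraries. Rpl31 turned to +0.04 without MSUS 4 and to +0.01 without Control 9, and Rps15a to +0.04 without Control 9. Rpl4, the gene with the most counts (459 a library), had 162 ± 4.1 CPM in MSUS and 155 ± 7.0 CPM in Control libraries (log2 +0.06).

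**Figure D3:**
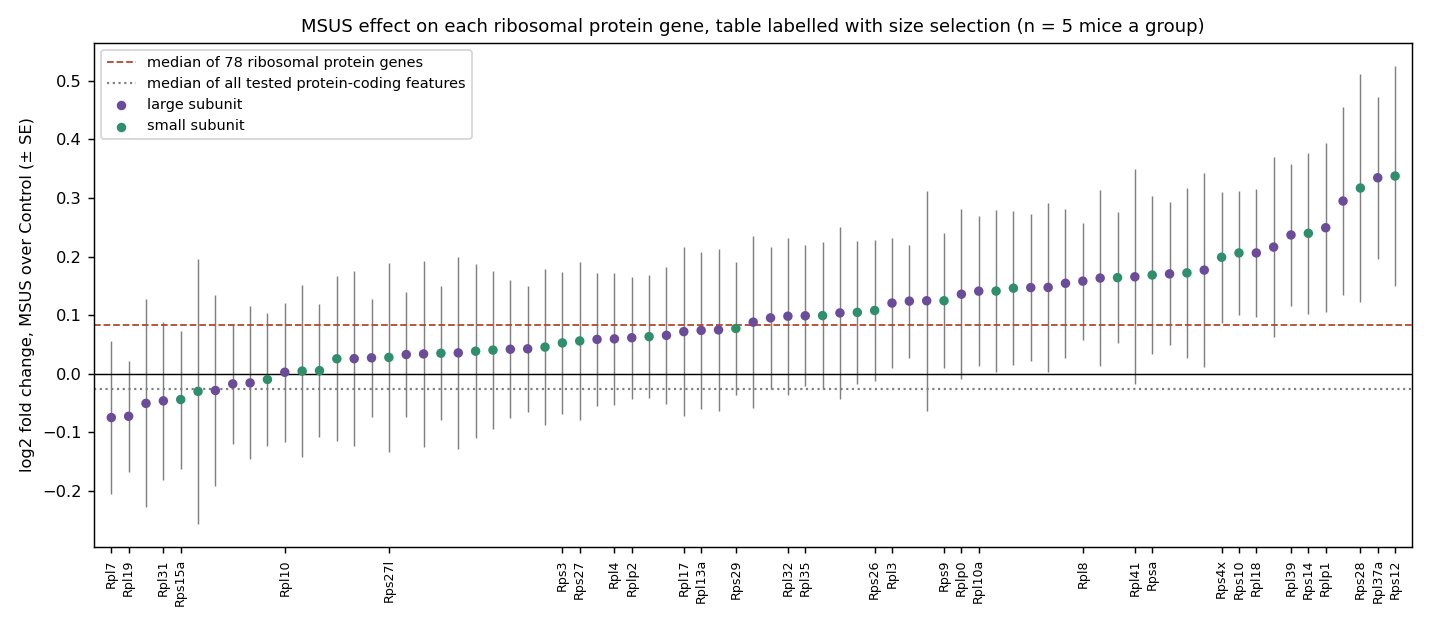
Log2 fold change of MSUS over Control for 75 of the 78 tested ribosomal protein genes in the table labelled with size selection, ordered by value, with SE bars (n = 5 mice a group) and genes of the text named. The dashed line is the median of the 78 (+0.08) and the dotted line that of all tested protein-coding features (-0.03). Points of both subunits run from -0.07 (Rpl7) to +0.34 (Rps12), and none passed the edgeR threshold.

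The shallower table tested 13 of the 81 genes, among them Rpl4, Rpl8, Rpl10, Rplp0, Rpl13a, Rpl32, Rpl41, Rps3, Rps9, Rps14, Rps26 and Rps27. By edgeR 0 of 13 were called (0% of 1075 features), 0 were at an unadjusted p under 0.05 in either direction (backgrounds 3.81% higher and 4% lower), and DESeq2 called 0. None had every MSUS value above the Control values (background 0.279%). Of the 13, 4 were positive and the median was -0.12, beside +0.01 over all tested features and -0.20 over protein-coding ones. Without Control 9 the median was -0.013, over 12 genes tested. Scaled over protein-coding features, the median was +0.06 and 9 of 13 were positive, while the median of all features moved to +0.20.

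Rps26, at the mRNA exit channel of the small subunit, was the 1 gene of 13 whose groups did not overlap (background 1.4% with every MSUS value lower). It had 23.6, 36.8, 34.9, 20.4 and 35.5 CPM in the MSUS libraries, against 42.1, 46.4, 52.1, 37.4 and 37.9 CPM in the Control libraries. The lowest Control value exceeded the highest MSUS value by less than 1 CPM. The log2 fold change was -0.36 (SE 0.23, edgeR adjusted p = 0.623). In the deeper table that of Rps26 was +0.11 (SE 0.12).

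Rplp0 averaged 42.5 ± 11 CPM in MSUS and 50.4 ± 9.0 CPM in Control libraries of this table (log2 -0.20). Rpl4 averaged 65.1 ± 15.1 CPM in MSUS and 79.1 ± 19.9 CPM in Control libraries (log2 -0.21), and Rpl32 51.6 ± 5.6 CPM in MSUS and 59.1 ± 21.8 CPM in Control libraries (log2 -0.21). Without Control 9, Rpl32 turned to +0.08, and without MSUS 14, Rpl4 was at -0.39. Rps14 averaged 49.8 ± 13.2 CPM in MSUS and 44.1 ± 10.4 CPM in Control libraries (log2 +0.16), and leaving out single libraries moved its value between +0.0015 (without MSUS 6) and +0.25 (without MSUS 14). Rps9, Rps3 and Rpl10 had log2 fold changes of -0.16, +0.04 and +0.02. Whether the effect of MSUS differed between the tables was tested for 77 of the genes as an interaction, and 0 were called (0% of 8109 features, by edgeR). None of them was at an unadjusted p under 0.05.

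Other genes of protein synthesis were read from lists, of which 0 genes were called in either table. In the deeper table Fau, which encodes a ribosomal protein fused to a ubiquitin-like protein, averaged 60.6 ± 8.6 CPM in MSUS and 52.1 ± 8.3 CPM in Control libraries (log2 +0.21). Of 10 other TOP mRNAs, 8 were positive (median +0.13). That list holds no elongation or initiation factor, whether TOP or not, so the lists do not compare TOP mRNAs with other mRNAs. Among the 10, Npm1, the nucleolar chaperone of ribosome assembly, averaged 64.2 ± 8.4 CPM in MSUS and 59.4 ± 7.4 CPM in Control libraries. Of 24 tested nucleolar assembly factors, again with Npm1, 18 were positive (median +0.13). Few were tested in the shallower table, where 1 of 2 TOP mRNAs (median -0.09) and 0 of 2 assembly factors (median -0.28) were positive. There 2 of 3 elongation factors (median +0.08) and 1 of 9 initiation factors and poly(A) binding proteins (median -0.17) were positive, beside a protein-coding median of -0.20. In the deeper table the elongation factors (4 of 7 positive, median +0.00) were closer to the median of all features. So were the initiation factors and poly(A) binding proteins (14 of 32, median -0.02) and the mitochondrial ribosomal proteins (29 of 53, median +0.02). Eef1a1, which brings aminoacyl-tRNA to the ribosome, averaged 707 ± 57.9 CPM in MSUS and 709 ± 32.0 CPM in Control libraries. Of the markers, 14 of 14 tested sperm and spermatid genes were positive (median +0.46), 10 of 11 muscle and stroma genes (median +0.37), 4 of 5 blood genes (median +0.20), 7 of 10 vesicle genes (median +0.05) and 4 of 12 epithelial genes (median -0.05). The part of those sources in the ribosomal protein values was not tested.

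The summed CPM of the 81 genes ranked the libraries of the deeper table most like Gm6563 and Ttbk2 (Spearman 0.92 over 10 libraries), then Eml3, Gsn and Mak16 (0.87 each), out of 5083 genes compared. In the shallower table the nearest of 234 genes were Arf1 (0.81), Arhgef12, Mylk, Eef1a1 and Gsn (0.73). Gsn, the actin-severing protein gelsolin, was in both. The median correlation was -0.07 over the 5083 genes of the deeper table and +0.28 over the 234 of the shallower. These correlations share libraries and scaling, and are given as a description.

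Between the tables the ribosomal protein genes did not move as a block. All 20 samples were fitted with condition as a covariate and a common scaling, and 76 genes were tested. By edgeR at an adjusted p of 0.05, 19 were higher in the deeper table (25%, beside 18.5% of all 7142 features and 16.7% of the protein-coding ones). A further 8 were lower (10.5%, beside 17.2% and 10.6%). In either direction 27 of 76 were called, beside 35.7% of all features. The median of the 76 log2 differences was +0.12, and +0.07 over all tested features. Without Control 9, Control 11 and MSUS 14, whose tRNA share stands apart, 12 were called, 8 higher and 4 lower, and Rps27l, Rpl10a and Rps28 lost their calls, while Rpl17 and Rps12 gave no value there. Because both runs read the same libraries, these differences concern the 2 runs and not the mice. With library size alone all 65 calls were higher, while the median of all features stood at +1.02, so each direction is relative to the scaling.

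Upward, several large-subunit genes were among the largest differences. Rpl17, at the exit tunnel, had a lowest, median and highest value of 6.48, 7.89 and 9.37 CPM in the deeper table and 2.44, 4.23 and 9.12 CPM in the shallower (log2 +1.13, edgeR adjusted p = 0.0090). Rpl10a, of the mobile L1 stalk, had 12.8, 18.2 and 20.2 CPM in the deeper table and 6.74, 9.43 and 14.6 CPM in the shallower (log2 +0.81, edgeR adjusted p = 0.0016). Rpl37a had 14.1, 18.9 and 24.5 CPM in the deeper table and 5.12, 9.86 and 18.1 CPM in the shallower (log2 +0.77, edgeR adjusted p = 0.0047). The ranges of these 3 overlapped between the tables, with 9 or 10 of 10 animals higher in the deeper. In the shallower table Rpl17, Rpl10a and Rpl37a averaged only 1.40, 3.40 and 3.86 counts a library. None of them passed the filter in that table alone. They entered the joint test through their counts in the deeper table, where they are higher, so their direction adds no support.

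Downward, Rps12 differed most, with 3.77, 5.14 and 8.96 CPM in the deeper table and 5.74, 10.2 and 16.0 CPM in the other (log2 -0.97, SE 0.23, edgeR adjusted p = 0.0023). Rpl35, beside the exit tunnel, had 12.2, 14.5 and 17.3 CPM in the deeper table and 14.4, 23.4 and 34.9 CPM in the shallower, and was lower in 10 of 10 animals (log2 -0.71, edgeR adjusted p = 0.00046). Rpl41, the gene with the highest level per kilobase, had 41.2, 57.5 and 84.7 CPM in the deeper table and 60.0, 86.2 and 114 CPM in the shallower (log2 -0.55, edgeR adjusted p = 0.0030). Rps28 had 8.37, 11.3 and 20.9 CPM in the deeper table and 10.6, 16.4 and 30.8 CPM in the shallower (log2 -0.66, edgeR adjusted p = 0.019). Without Control 11 its log2 difference was -0.38 and the call was lost (edgeR adjusted p = 0.215). As ratios of mean level, the lowest 5 of the 81 were Rpl3l (0.469, too low to test), Rps12, Rps27, Rpl35 and Rps16 (0.661), and among the highest were Rpl7a (2.09, too low to test, with 0.894 counts a library in the shallower table), Rpl37a, Rps27l and Rpl7 (1.78).

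**Figure D4:**
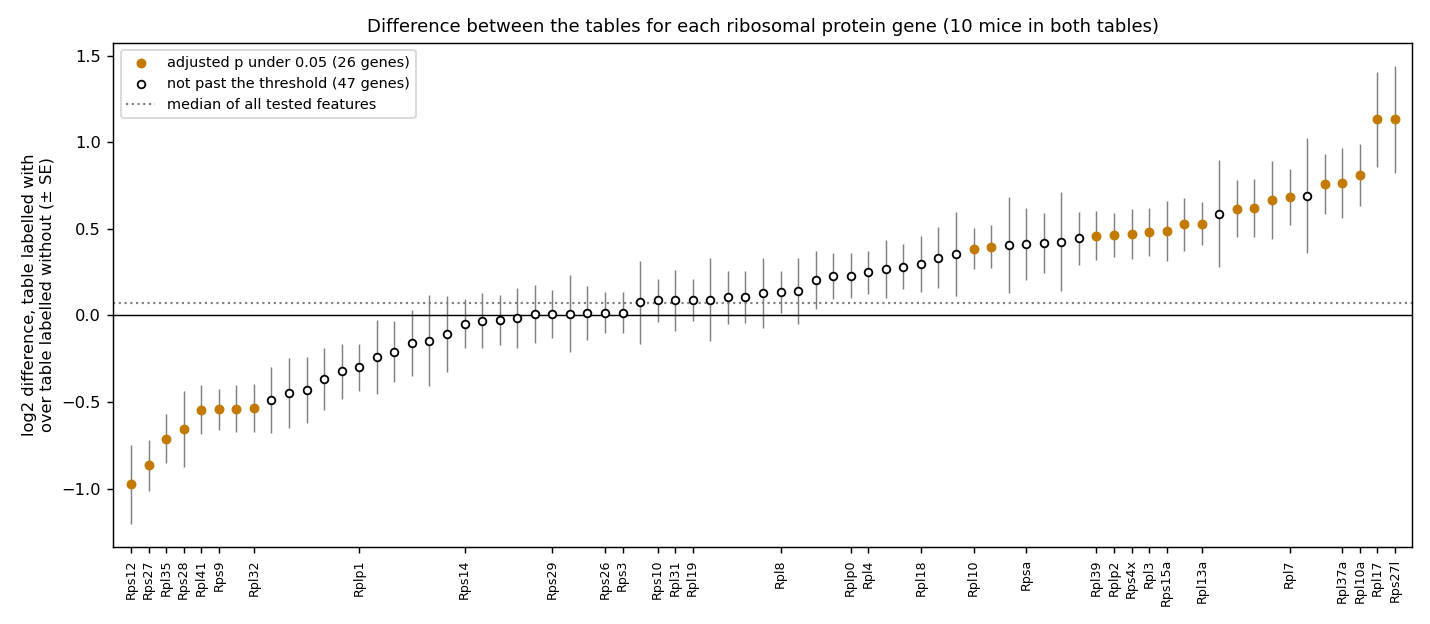
Log2 difference between the table labelled with size selection and the table labelled without for 73 of the 76 tested ribosomal protein genes, ordered by value, with SE bars (10 mice in both tables) and genes of the text named. The 26 filled points passed the edgeR threshold, and the dotted line is the median of all tested features (+0.07). The values run from -0.97 (Rps12) to +1.13 (Rps27l).

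Under TMM scaling, a pair of close relatives moved apart between the tables. Rps27 and Rps27l encode small-subunit proteins with a zinc finger, and Rps27l is a p53 target. Rps27 had 15.2, 19.1 and 23.7 CPM in the deeper table and 20.6, 34.4 and 48.1 CPM in the other. It was lower in 10 of 10 animals (log2 -0.87, SE 0.15, edgeR adjusted p = 1.9e-05). Rps27l had 6.61, 9.11 and 10.9 CPM in the deeper table and 2.00, 3.89 and 10.97 CPM in the shallower, higher in 9 of 10 animals (log2 +1.13, SE 0.31, edgeR adjusted p = 0.0047). It averaged only 1.52 counts a library in the shallower table. Between MSUS and Control mice both were close to 0 in the deeper table (log2 +0.06 and +0.03). Their coding sequences, without the stop codon, are shown so that the 2 genes can be compared letter by letter. They are from the GENCODE vM21 transcripts of GRCm38, 252 bases each, 5' to 3', with the 60 letters that differ in capitals and 76.2% of the letters the same. The gene of Rps27 lies at chr3:90212522-90213651 (minus strand) and that of Rps27l at chr9:66946086-66949516 (plus strand).
Rps27: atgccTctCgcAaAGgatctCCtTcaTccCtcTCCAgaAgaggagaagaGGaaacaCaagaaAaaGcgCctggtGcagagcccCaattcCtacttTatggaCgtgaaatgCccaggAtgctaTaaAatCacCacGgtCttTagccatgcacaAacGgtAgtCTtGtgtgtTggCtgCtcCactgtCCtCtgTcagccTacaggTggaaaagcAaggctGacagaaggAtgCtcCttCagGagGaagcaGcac
Rps27l: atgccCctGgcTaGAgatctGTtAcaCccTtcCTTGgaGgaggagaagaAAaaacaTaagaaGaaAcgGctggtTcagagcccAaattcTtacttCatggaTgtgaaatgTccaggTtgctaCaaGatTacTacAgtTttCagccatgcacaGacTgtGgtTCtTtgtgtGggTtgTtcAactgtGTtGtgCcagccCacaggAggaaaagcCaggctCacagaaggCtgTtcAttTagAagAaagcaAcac
The differing letters are spread along the whole sequence, with short shared stretches between them. The sources used here do not say how reads were split between the pair.

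Transcript features that the naming rule did not use had weak correlations with the difference between the tables. Over 75 genes its Spearman correlation was +0.13 with transcript length, -0.18 with GC content and +0.05 with the share of 25-base words found in another gene. The median log2 difference was +0.23 over 45 large-subunit genes (12 called higher, 3 lower) and +0.01 over 31 small-subunit genes (7 higher, 5 lower), a split that was not tested.

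Ribosomal protein genes also had counts on retained-intron rows, those of transcripts annotated as keeping an intron. In the deeper table retained-intron rows of these genes summed to 11153 ± 6456 counts in MSUS and 13624 ± 8168 in Control libraries, where the protein-coding rows of all 81 genes summed to 6147 ± 3300 in MSUS and 9507 ± 4773 in Control libraries. Rpl13 alone held 56.3% of these retained-intron counts. The order was the other way round in the shallower table, with 385 ± 205 retained-intron counts in MSUS and 532 ± 360 in Control libraries, and 529 ± 347 protein-coding counts in MSUS and 783 ± 441 in Control libraries. A retained-intron row existed for 45 genes. For 15 of them an annotated retained-intron transcript holds a snoRNA. There the ratio of retained-intron to protein-coding counts had a median of 1.77, and 11 of 15 had a ratio above 1. For the other 30 the median was 0.288, and 7 had a ratio above 1. In the shallower table the medians were 2.33 and 0.332.

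Rpl13, Rpl21 and Rpl5 are described here, and were singled out after their values were seen. Together they held 73.0% of the retained-intron counts of ribosomal protein genes in the deeper table and 38.6% in the shallower. Rpl13, the host of Snord68, had 177 times as many counts on its retained-intron row as on its protein-coding row (6973 and 39.4 counts a library). The ratios were 14.6 for Rpl21 and 12.2 for Rpl5. Rpl5 carries the 5S ribosomal RNA into the ribosome. The snoRNAs inside have rows of their own, with means given here for the deeper table. Snord68 had 111 counts, beside 6973 on the retained-intron row of its host Rpl13. Gm25091 had 929 counts, beside 949 on that row of its host Rpl21. Snord21 had 1031 counts, beside 1116 on that row of its host Rpl5. For Rpl21 and Rpl5 the retained-intron count was thus close to that of a snoRNA inside. Whether the retained-intron counts come from reads of these snoRNAs was not tested.

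The retained-intron row of Rpl13 had 4150, 2617, 3191, 2131 and 2529 CPM in MSUS 2, 4, 6, 8 and 14, against 1610, 2202, 1868, 2271 and 1932 CPM in Control 3, 5, 7, 9 and 11. Every MSUS value exceeded the Control mean of 1977, and the groups overlapped through MSUS 8, Control 5 and Control 9. The log2 fold change was +0.56 (SE 0.23, edgeR adjusted p = 0.837). Rpl5 (log2 +0.61, SE 0.24) and Rpl21 (log2 +0.45, SE 0.17) were the other retained-intron rows at an unadjusted p under 0.05, and had the same adjusted p of 0.837. Of 39 retained-intron rows tested, 0 were called by edgeR, where 0% of all 10998 features were called. The 3 rows at an unadjusted p under 0.05 were all higher in MSUS, beside 3.45% of all features. Of the 39, 35 were positive (median +0.12), beside 49.6% of all features. All 15 whose transcript holds a snoRNA were positive (median +0.18), and 20 of the other 24 (median +0.09). These directions are relative to the TMM scaling, since with library size alone the median of all features was -0.57. In the shallower table Rpl13 averaged 325 ± 130 CPM in MSUS and 244 ± 67.2 CPM in Control libraries (log2 +0.41, edgeR adjusted p = 0.617).

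Between the tables, the 3 rows singled out above were higher in the deeper one. On the common scale, Rpl13 had a lowest, median and highest value of 1188, 1655 and 3068 CPM in the deeper table and 180, 328 and 616 CPM in the other (log2 +2.19, SE 0.21, edgeR adjusted p = 5.6e-10). The log2 differences were +2.23 for Rpl21 and +1.95 for Rpl5, both called and higher in 10 of 10 animals. Of the 15 retained-intron rows with a snoRNA, 5 were called higher and 2 lower (median -0.09), and of 17 without one, 2 higher and 5 lower (median -0.15), beside 18.5% higher and 17.2% lower among all features.

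**Figure D5:**
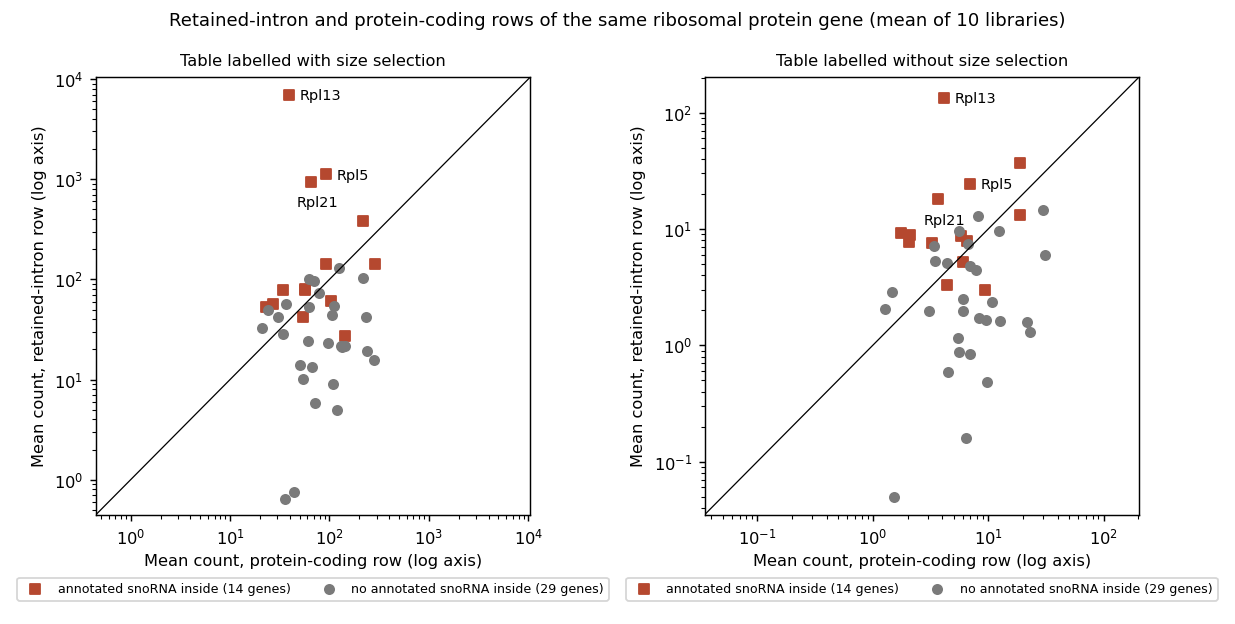
Mean count per library on the retained-intron row (y, log axis) against the protein-coding row (x, log axis) of the same ribosomal protein gene, in the table labelled with size selection (left) and without (right). Squares are 14 of the 15 genes whose retained-intron transcript holds a snoRNA and circles 29 of the other 30, and the line marks equal counts. Rpl13 lies farthest above the line in both tables.

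Over the 81 genes, whose levels differ widely, the Spearman correlation of CPM between 2 libraries ranged from 0.95 to 0.99 in the deeper table (45 pairs) and from 0.68 to 0.93 in the shallower one. The 10 genes with the most counts held 34.3 and 37.6% of all counts on the 81. The median coefficient of variation of the tested genes was 15.0% in MSUS and 10.2% in Control libraries of the deeper table, and 24.2 and 18.4% in the shallower.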

How the data were processed

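Small RNA of cauda epididymosomes was read in 2 runs of the same 10 libraries (5 MSUS, 5 Control). The authors deposited estimated counts per annotated RNA, a symbol with a transcript type; the notes of the submitters name GRCm38, STAR and edgeR, and the sources used here do not say how reads were assigned. No deposited value was scaled or pooled. Groups and animal numbers come from the sample titles. The genes, lists and tests were chosen with earlier results of these data known.

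For testing, values were rounded to whole counts, at a loss of 0.0504 to 0.0992% a library in the deeper table, the one labelled as size-selected, and 0.266 to 0.689% in the shallower. Features passing filterByExpr went into edgeR 4.0.16 (R 4.3.3) (TMM scaling, robust quasi-likelihood test, Benjamini-Hochberg adjustment over all features of the fit, threshold 0.05), and SE were derived from the F statistic. TMM factors ran from 0.417 to 1.73 in the deeper table. Each table was fitted alone for MSUS against Control, and all 20 samples together, with condition as a covariate, for the difference between tables and the interaction. The procedure was tested on simulated data. The same animals stand behind both tables: deviations from the group means over 8109 features correlated at 0.0574 to 0.354 within an animal, and 9 of 10 animals matched themselves best (highest between animals 0.167).

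Named are the 10 genes with the highest level per kilobase in a table, the 5 smallest p in each direction, the 5 largest calls in each direction between the tables, the stalk proteins, Rpsa and tissue-restricted copies with their partners. Alternatives were DESeq2 1.42.0, library size alone, TMM over protein-coding features, no filter, rounding, added pseudogene rows, animal as a block, and leaving out each library or Control 9, Control 11 and MSUS 14, whose tRNA share stands apart. Summing all transcript types of a symbol, and leaving out Akr1b7, were chosen after seeing the data. Lengths and snoRNA positions are from GENCODE vM21 and promoter windows from RefSeq (GRCm38.p6). Rpl6l has no coding transcript in that annotation and no level per kilobase. Some genes that the rules pick are not reported here, and are left out of the figures.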

Additional observations from a re-analysis of the deposited data

Results flagged for a closer look

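Outlying libraries were looked for in the shares and in the named genes, by the gap of the highest or lowest of 5 libraries to its neighbour over the range of the group. Of 42 groups, 5 exceeded the limit of 0.71, and chance alone would pick about 1 group in 20. In the deeper table, Control 7 was low for Rpl7 (31.2 CPM), and Control 9 was high for Rps15a (28.7 CPM). In the shallower table, MSUS 14 was high for Rps3 (51.0 CPM), Control 9 high for Rpl32 (97.3 CPM) and Control 5 high for Rps9 (89.2 CPM). None of the 8 groups of ribosomal protein shares had such a library, and no gene had a called difference of the MSUS effect between the tables.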

How the results depend on the processing

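The count of genes called between MSUS and Control was 0 in both tables under every alternative run, and the 4 differences in share kept their sign under each. Leaving out each library gave -0.134 to -0.068 and +0.111 to +0.187 percentage points for the shares of all and of protein-coding counts in the deeper table. In the other table the ranges were -0.041 to -0.022 and +0.122 to +0.188. The median log2 fold change ran from +0.06 to +0.11 and from -0.17 to -0.01. It moved with the scaling, to -0.50 and -0.40 with library size alone, and to +0.064 in the shallower table with TMM over protein-coding features. Without a filter it was +0.0026 in the deeper table, where 81 genes were tested.

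Single genes with small values changed sign. With library size alone this held for Rpl37a (-0.25), Rps10 (-0.36), Rpl39 (-0.37), Rpl18 (-0.39) and Rps4x (-0.37), and in the other table for Rps14 (-0.13), Rps3 (-0.23) and Rpl10 (-0.25). Without Control 9, Control 11 and MSUS 14 it held for Rps15a (+0.033), Rpl31 (+0.073), Rps3 (-0.43), Rpl10 (-0.066) and Rpl32 (+0.022). With all types of a symbol summed Rps3 was at -0.0019 and Rpl10 at -0.072, without a filter Rps3 at -0.011 and Rpl10 at -0.056, and with TMM over protein-coding features Rps9 at +0.019. Leaving out single libraries gave -0.078 to +0.036 for Rps15a, -0.10 to +0.037 for Rpl31, -0.12 to +0.12 for Rps3, -0.16 to +0.12 for Rpl10 and -0.33 to +0.084 for Rpl32. The causes were not tested.

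Between the tables the 27 calls (19 higher, 8 lower) became 65 (65 and 0) with library size alone and 57 (57 and 0) without a filter, where the median was +1.07 and +0.74. Without Control 9, Control 11 and MSUS 14 they became 12 (8 and 4), on 6 fewer samples. With all types summed the median was +0.22. Leaving out each animal gave 22 to 28 calls and medians of +0.11 to +0.19. In the paired fit with animal as a replicate block there were 28 calls (19 and 9), and the interaction kept 0 calls. With library size alone Rps27 (+0.11), Rpl35 (+0.22), Rps28 (+0.30) and Rpl41 (+0.33) turned positive, the last also without a filter (+0.088). Depth limits the shallower table, where 63 of the 81 genes averaged under 10 counts.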
